A study of Mus musculus with 6 samples.

Results

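The genes examined here encode the phototransduction cascade of cone photoreceptors, the cells of daylight and colour vision. All transcript clusters (sets of exon probes that are summarised as 1 transcript) with 1 gene symbol among Gnat2, Gnb3, Gngt2, Pde6c, Pde6h, Cnga3, Cngb3, Arr3 and Slc24a2 were taken. Each of these 9 genes had 1 such cluster, and all 9 clusters passed the filter on dim signal, among 17468 genes measured. The study compared retinas of Sall3 knockout mice with retinas of wild-type mice, both of strain C57BL/6 and of mixed sex. Retinas were removed on postnatal day 0 and kept for 7 days as flat explants on floating membrane filters in a medium with fetal bovine serum. Each genotype had 3 samples, and each sample held the RNA of 3 pooled retinas on its own exon array. The labels state neither the kind of knockout allele nor the litters or cultures behind the samples of a genotype, so the spread that p-values rest on may be technical. The explants mix many retinal cell types, of which cones are a small minority in the mouse.

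When light isomerises the pigment of a cone, the opsin activates transducin, a G protein whose alpha, beta and gamma subunits in cones are encoded by Gnat2, Gnb3 and Gngt2. Transducin relieves the phosphodiesterase PDE6 (catalytic subunit Pde6c, inhibitory subunit Pde6h) of its inhibition, cyclic GMP is broken down, and the cyclic nucleotide-gated channel formed by Cnga3 and Cngb3 closes. Cone arrestin (Arr3) ends the activity of the pigment, and the sodium, calcium and potassium exchanger Slc24a2 removes calcium. Rods run the same cascade with proteins from separate genes, which gives each cone gene a counterpart measured in the same explants. Loss of PDE6C, GNAT2, CNGA3 or CNGB3 function in people causes achromatopsia, in which cone vision is lost.

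The targeted gene did not separate the genotypes on its cluster. Sall3, which encodes a Spalt-type zinc finger factor, had log2 signals of 6.24, 6.05 and 6.13 in knockout 1, 2 and 3 and 6.21, 6.36 and 6.33 in the wild-type samples. The difference of -0.16 (SE 0.10, limma adjusted p = 0.877) left the groups overlapping. It is unknown whether the probes of the cluster fall in the part of Sall3 that the knockout altered. The value therefore does not check the genotype labels. The genotypes did not stand apart over all genes either: the correlations between arrays were 0.990 to 0.997 within a genotype and 0.983 to 0.995 between genotypes. Knockout 1 was the highest array for 45.6% of genes and wild-type 3 the lowest for 32.2%. The photoreceptor markers Crx, Otx2, Neurod1, Prph2 and Rom1, which check the tissue label, had a mean log2 signal of 11.49 to 11.57 in knockout and 11.45 to 11.55 in wild-type arrays.

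Of the 9 cone cascade genes, 8 had a lower mean signal in knockout and 1 a higher one, with a median difference of -0.20 on the log2 scale. Over all genes 54.7% had a difference below 0, and the median was -0.01. The differences were uneven: Pde6c at -1.08 and Arr3 at -0.51 stood apart, Cnga3, Slc24a2, Gngt2 and Gnat2 lay between -0.25 and -0.18, and Pde6h, Gnb3 and Cngb3 lay between -0.04 and 0.12. In limma none of the 9 passed an adjusted p of 0.05 over the 75632 clusters kept, where 0% were called lower and 0% higher, and their adjusted p ran from 0.539 for Pde6c to 0.999 for Gnb3. At an unadjusted p under 0.05, Pde6c, Cnga3 and Arr3 were lower, 3 of 9, beside 1.05% of all genes, and no member was higher. No knockout array reached the lowest wild-type array in Pde6c, Arr3, Cnga3 and Gngt2, 4 of 9, beside 11.2% of all genes, and no member lay apart in the opposite direction, as 1.7% of genes did.

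**Figure D1:**
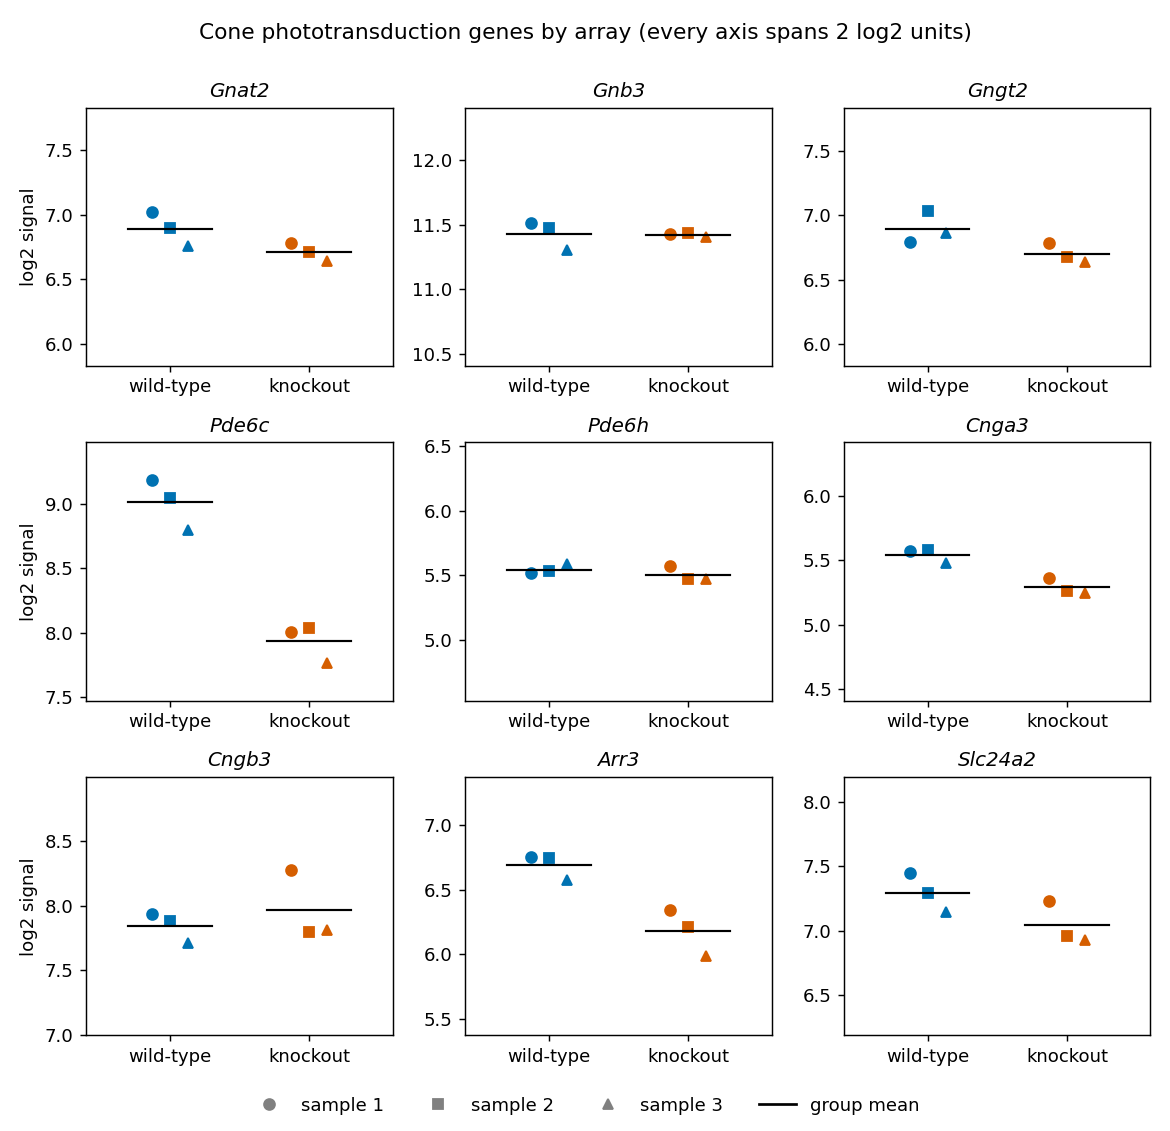
Log2 signal (vertical axis, a span of 2 log2 units in every panel) of the 9 cone cascade genes in 3 wild-type (blue) and 3 knockout (orange) samples, with the sample number as marker shape and the group mean as a line. Pde6c has the widest gap between the groups, at 8.80 to 9.19 in wild-type and 7.76 to 8.03 in knockout. The groups of Gnb3, Pde6h and Cngb3 overlap, as do those of Gnat2 and Slc24a2, where only knockout 1 lies above wild-type 3.

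Among the transducin subunits, alpha and gamma had lower means in knockout, and beta had a difference close to 0. None of these differences passed. Gnat2, the subunit that carries the signal from pigment to phosphodiesterase, had log2 signals of 7.02, 6.90 and 6.76 in wild-type 1, 2 and 3 and of 6.78, 6.71 and 6.64 in knockout 1, 2 and 3. The groups overlapped through a single pair of arrays, since knockout 1 lay above wild-type 3. The difference was -0.18 (SE 0.11, 95% interval -0.45 to 0.09; limma adjusted p = 0.871), and it was -0.12 without wild-type 1.

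Gngt2, the gamma subunit, had signals of 6.79, 7.03 and 6.86 in wild-type and 6.78, 6.68 and 6.63 in knockout. The groups did not overlap, but only 0.01 parted knockout 1 from wild-type 1, and under median centring they did overlap. The difference was -0.20 (SE 0.11, 95% interval -0.47 to 0.07; limma adjusted p = 0.841), and it was -0.13 without wild-type 2. Monocytes also transcribe Gngt2, and the microglia markers were lower in 9 of 9 genes with a median of -0.16, a count of 8 as deposited or median centred and of 7 to 9 with an array left out, where the median ran from -0.31 without knockout 1 to -0.06 without wild-type 2. Set against their wild-type mean, these markers had medians of 0.12, -0.22 and -0.34 in knockout 1, 2 and 3, where Gngt2 itself stood at -0.11, -0.22 and -0.26. Their summed level, as the mean log2 signal of the 9 markers, was 7.98 to 8.39 in knockout and 8.21 to 8.40 in wild-type arrays. The part of these cells in the Gngt2 value was not tested.

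Gnb3, the beta subunit, had signals of 11.51, 11.47 and 11.30 in wild-type and 11.43, 11.43 and 11.41 in knockout, so that all knockout arrays lay within the wild-type range. The difference of -0.01 had a 95% interval of -0.25 to 0.24 (SE 0.10; limma adjusted p = 0.999), and its sign turned under 2 other scalings. ON bipolar cells also use Gnb3, and the 8 of 10 markers of these cells that were measured had a median of -0.02, with mean log2 signals of 8.01 to 8.25 in knockout and 8.07 to 8.16 in wild-type arrays. The part of bipolar cells in the Gnb3 signal was not tested. Within each array, the change of Gnat2 relative to Gnb3 was -0.11, -0.18 and -0.22 in the knockout arrays and 0.04, -0.03 and -0.01 in the wild-type arrays. Each knockout array lay under each wild-type array in this measure (difference -0.17, SD 0.06 and 0.04, n = 3 each; exact permutation p = 0.1, two-sided). Relative to Gngt2, Gnat2 differed by 0.02 (exact permutation p = 1). With 3 arrays against 3, the smallest p this test can give is 0.1. These comparisons within transducin were chosen after their values were seen, so their p-values describe the separation and do not test it.

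The cone phosphodiesterase held the largest difference of the cascade in its catalytic subunit and one close to 0 in its inhibitory subunit. Pde6c, which forms the enzyme that breaks down cyclic GMP, had log2 signals of 9.19, 9.05 and 8.80 in wild-type 1, 2 and 3 and of 8.00, 8.03 and 7.76 in knockout 1, 2 and 3. The highest knockout array lay well below the lowest wild-type array. The mean was 9.01 ± 0.20 in the wild-type and 7.93 ± 0.15 in the knockout arrays (SD, n = 3 each), a difference of -1.08 (SE 0.14, 95% interval -1.43 to -0.72), or 47.4% of the wild-type signal on a linear scale if the deposited values are log2, which their range points to and no source states. This was the 14th lowest difference and the 7th lowest p among the 17468 genes, and it did not pass over all clusters (limma adjusted p = 0.539). In an explant, fewer cones and less RNA per cone cannot be told apart.

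Pde6h, the inhibitory subunit, had signals of 5.52, 5.53 and 5.59 in wild-type and 5.57, 5.48 and 5.47 in knockout, and the groups overlapped. Its difference was -0.04 (SE 0.09, 95% interval -0.26 to 0.18; limma adjusted p = 0.974). This signal lay not far above the medians of the arrays, which ran from 4.97 to 5.07, and no detection value came with the clusters. How far it stands above background is therefore unknown, and a background signal makes a difference in RNA look smaller. Within each array, the change of Pde6c relative to that of Pde6h was -1.03, -0.91 and -1.17 in the knockout arrays and 0.21, 0.05 and -0.26 in the wild-type arrays. The difference of -1.04 (SD 0.13 in knockout and 0.24 in wild-type, n = 3 each) separated all knockout from all wild-type arrays (exact permutation p = 0.1, two-sided, and 0.133 after Benjamini-Hochberg adjustment over the 4 comparisons within a complex). All 4 were chosen after their values were seen, so these p-values describe the separation and do not test it.

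The channel subunits had values of opposite sign, neither of which passed. Cnga3, the subunit that forms the cyclic nucleotide-gated pore, had log2 signals of 5.57, 5.58 and 5.48 in wild-type and 5.37, 5.26 and 5.25 in knockout. The groups did not overlap, and both were tight, with an SD of 0.05 in wild-type and 0.06 in knockout. The difference was -0.25 (SE 0.09, 95% interval -0.48 to -0.02; limma adjusted p = 0.728). As for Pde6h, the signal was close to the array medians.

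Cngb3, the modulatory subunit, had signals of 7.94, 7.88 and 7.71 in wild-type and 8.28, 7.80 and 7.82 in knockout. Knockout 1 alone lay above the wild-type range, and the others lay within it. The difference was 0.12 (SE 0.17, 95% interval -0.28 to 0.53; limma adjusted p = 0.957), and it was -0.04 without knockout 1. Relative to Cngb3 in the same array, Cnga3 changed by -0.62, -0.23 and -0.27 in the knockout arrays and by -0.07, -0.003 and 0.07 in the wild-type arrays. This comparison, too, was chosen after its values were seen, so its p-value describes the separation and does not test it. The groups did not overlap in this measure (difference -0.37; exact permutation p = 0.1, two-sided; 0.133 after adjustment over the same 4 comparisons), and knockout 1 was the farthest out.

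Arr3, the arrestin that binds phosphorylated cone pigment, had the second largest difference of the 9. Its log2 signals were 6.75, 6.74 and 6.57 in wild-type 1, 2 and 3 and 6.35, 6.21 and 5.99 in knockout 1, 2 and 3. The groups did not overlap. The mean was 6.69 ± 0.10 in the wild-type and 6.18 ± 0.18 in the knockout arrays (SD, n = 3 each), a difference of -0.51 (SE 0.13, 95% interval -0.83 to -0.19; limma adjusted p = 0.621), or 70.2% of the wild-type signal on the linear scale. It ranked 105th from the lowest difference among all genes.

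The exchanger Slc24a2 had signals of 7.45, 7.29 and 7.14 in wild-type and 7.23, 6.96 and 6.93 in knockout. As with Gnat2, only knockout 1 above wild-type 3 made the groups overlap. The difference was -0.25 (SE 0.14, 95% interval -0.59 to 0.08; limma adjusted p = 0.835). Ganglion cells and other neurons also express this exchanger, and the ganglion cell markers were lower in 7 of 7 measured genes (Pou4f2 had no named cluster used here), with a median of -0.21, which ran from -0.32 without knockout 1 to -0.11 without knockout 2. Relative to the wild-type mean, these markers had medians of -0.02, -0.40 and -0.23 in knockout 1, 2 and 3, where Slc24a2 stood at -0.06, -0.33 and -0.36. In wild-type 1, 2 and 3 the marker medians were -0.02, 0.04 and -0.04, where Slc24a2 stood at 0.15, -0.002 and -0.15. The mean log2 signal of the markers was 7.18 to 7.42 in knockout and 7.43 to 7.53 in wild-type arrays. The part of ganglion cells in the Slc24a2 value was not tested.

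RefSeq promoter windows of build GRCm38.p6, running from 250 bases before to 50 after a gene start, were at hand for 5 of the 9 genes, Gnat2, Pde6h, Cnga3, Arr3 and Slc24a2, in 7 windows. They were searched on both strands for TAATC letters, the core read by the photoreceptor homeodomain factors OTX2 and CRX, and for AGGTCA letters, the half-site of thyroid hormone, retinoid and ROR nuclear receptors. The letters of the 2 motifs do not overlap, and both were chosen with the windows in view. Arr3 and Gnat2 are shown because theirs were the only ones among the 7 windows that held TAATC. Capitals mark the TAATC letters on either strand, 5′ to 3′ along the gene. Arr3 lies at chrX:100605247-100605546 on the plus strand and Gnat2 at chr3:108092816-108093115 on the plus strand.
Arr3: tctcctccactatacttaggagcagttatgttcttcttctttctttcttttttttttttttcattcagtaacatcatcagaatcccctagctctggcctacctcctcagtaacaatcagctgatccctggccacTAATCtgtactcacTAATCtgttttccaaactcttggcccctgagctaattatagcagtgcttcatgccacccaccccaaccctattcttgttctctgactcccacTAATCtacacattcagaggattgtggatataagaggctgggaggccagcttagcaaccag
Gnat2: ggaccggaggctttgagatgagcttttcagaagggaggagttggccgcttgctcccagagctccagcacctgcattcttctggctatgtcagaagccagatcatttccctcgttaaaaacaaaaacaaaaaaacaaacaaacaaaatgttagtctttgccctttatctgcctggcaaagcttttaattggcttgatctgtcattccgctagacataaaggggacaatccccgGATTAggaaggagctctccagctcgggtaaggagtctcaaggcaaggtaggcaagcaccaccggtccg
The Arr3 window held TAATC 3 times, beginning 116, 102 and 10 bases before the start, and the Gnat2 window held its reverse complement once, beginning 18 bases before it. Of all 32851 windows 22.0% held TAATC at least once and 0.658% at least 3 times. The windows of Pde6h, Cnga3 and Slc24a2 did not hold it, and none of the 7 cone windows held AGGTCA, which 16.3% of all windows did. Of 7 windows of 7 rod counterparts, 5 held TAATC and 3 held AGGTCA. With the motif, Arr3 stood at -0.51 and Gnat2 at -0.18. Without it, Cnga3 and Slc24a2 stood at -0.25 and Pde6h at -0.04. No window was at hand for Pde6c, and a link between the motif and the differences was not tested.

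Whether the difference lay in the cone version of each protein was examined against its rod counterpart in the same array. The 10 rod counterparts had a median difference of 0.05, with 7 above and 3 below 0, none lay apart between the genotypes and none passed (the smallest limma adjusted p was 0.787, for Gngt1). The rod catalytic subunits Pde6a and Pde6b differed by 0.07 (SE 0.11) and 0.01 (SE 0.09), rod arrestin Sag by 0.06 (SE 0.09), and rod transducin Gnat1 by -0.02 (SE 0.09). Their mean log2 signal was 10.14 to 10.22 in knockout and 9.97 to 10.10 in wild-type arrays.

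The change of Pde6c minus that of the mean of Pde6a and Pde6b was -1.08, -0.97 and -1.30 in knockout 1 to 3, against 0.20, -0.02 and -0.18 in wild-type 1 to 3, a difference of -1.11. For Arr3 minus Sag the values were -0.34, -0.54 and -0.84 in the knockout arrays and 0.10, 0.02 and -0.13 in the wild-type arrays, a difference of -0.57. In both pairs every knockout array lay below every wild-type array. Gngt2 minus Gngt1 separated the groups too, at -1.15, -0.28 and -0.90 in the knockout arrays and -0.04, -0.04 and 0.08 in the wild-type arrays, but most of its difference of -0.78 came from the rod gene, which stood at 0.58 (SE 0.26) in knockout. For these 3 of 9 pairs the exact permutation p was 0.1, two-sided, the smallest it can give, and 0.3 after Benjamini-Hochberg adjustment over the 9 pairs. The members and their counterparts were chosen with earlier results of these data known, so the p-values of the 9 pairs describe the separation and do not test it.

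The remaining 6 pairs overlapped between the genotypes. Cnga3 minus Cnga1 differed by -0.74 with an SD of 0.56 in knockout and 0.45 in wild-type, most of it from Cnga1 at 0.49 (SE 0.34). Slc24a2 minus Slc24a1 differed by -0.29, Pde6h minus Pde6g by -0.16, Gnat2 minus Gnat1 by -0.16, Gnb3 minus Gnb1 by 0.04 and Cngb3 minus Cngb1 by 0.18. Their exact permutation p lay between 0.2 and 0.6, two-sided, before adjustment.

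**Figure D2:**
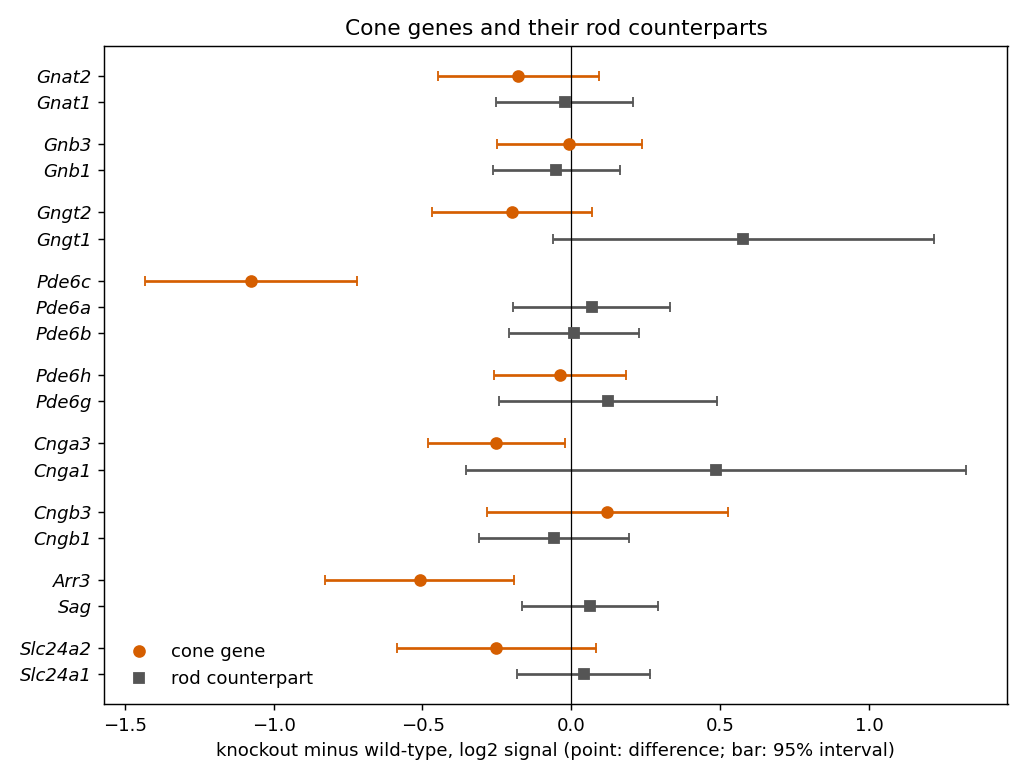
Difference between knockout and wild-type log2 signal (horizontal axis) of each cone gene (orange circles) and its rod counterparts (grey squares), with 95% intervals from limma, 3 arrays per genotype. The intervals of Pde6c (-1.43 to -0.72), Arr3 (-0.83 to -0.19) and Cnga3 (-0.48 to -0.02) end below 0, and those of all 10 rod counterparts include 0.

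The other genes of the pathway fall into pigments, recovery genes and assembly genes. Of the 9 genes that reset the cascade in rods and cones (Grk1, Rgs9, Rgs9bp, Gnb5, Guca1a, Guca1b, Gucy2e, Gucy2f and Rcvrn), 4 had a lower and 5 a higher mean in knockout, with a median of 0.05, and none passed; the values as deposited or median centred gave 2 and 7. Guca1a, the calcium sensor that drives guanylate cyclase, had the smallest p of the list, with 5.91 ± 0.16 in knockout and 6.38 ± 0.06 in wild-type (SD, n = 3 each; difference -0.47, SE 0.12; limma adjusted p = 0.608), and its groups did not overlap. Rgs9bp, which anchors the protein that speeds the shut-off of transducin, stood at 0.36 (SE 0.20), and the pigment kinase Grk1 at 0.09 (SE 0.10). Both had separated groups with knockout on the higher side, and without wild-type 3 they stood at 0.14 and 0.05. Over all genes, 11.2% had separated groups with knockout lower, as Guca1a did, and 1.7% with knockout higher. Of the 7 genes that fold or carry cascade proteins (Aipl1, Pde6d, Unc119, Arl3, Rp2, Pdc and Pdcl), 1 had a lower and 6 a higher mean, with a median of 0.05, no separated group and none passing. That count rested on wild-type 3: without it 4 were lower and 3 higher, with a median of 0.00. The 3 smallest p of this list belonged to Rp2 at 0.29 (SE 0.22), Arl3 at -0.07 (SE 0.09) and Pde6d at 0.12 (SE 0.15). Without wild-type 3 they stood at 0.08, -0.03 and 0.00, and without knockout 1 Rp2 stood at 0.15 and Pde6d at 0.04.

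The cone pigments that start the cascade were unequal as well: the short-wavelength opsin Opn1sw stood at -2.35 (SE 0.37; limma adjusted p = 0.539) with separated groups, and the middle-wavelength opsin Opn1mw at -0.24 (SE 0.16; limma adjusted p = 0.891) with overlapping groups. Without wild-type 1, Opn1mw stood at -0.09. The 6 cone markers outside the cascade, these opsins included, had 3 lower and 3 higher values and a median of -0.11, and 5 were lower without knockout 1 or without wild-type 3. Ccdc136 stood at -0.22 (SE 0.10; limma adjusted p = 0.783) with separated groups. Otop3 and the nuclear receptors of cones, Thrb and Rxrg, lay between 0.01 and 0.04 with overlapping groups. The 5 measured rod markers had a median of 0.01 and the 5 markers of photoreceptors of both types one of 0.02. Nrl at -0.10 and Otx2 at -0.09, 1 gene of each list, had separated groups with knockout lower, beside 11.2% of all genes. The groups of Nrl overlapped for the values as deposited, and those of Otx2 under median centring. Horizontal cell markers, of cells not known to use the cascade, were lower in 6 of 6 genes (5 of 6 as deposited or median centred) with a median of -0.24, which ran from -0.40 without wild-type 3 to -0.15 without wild-type 2, and their mean log2 signal was 8.01 to 8.22 in knockout and 8.34 to 8.56 in wild-type arrays. Of these 6, 3 had separated groups with knockout lower, beside 11.2% of all genes: Lhx1 at -0.77, Onecut1 at -0.64 and Prox1 at -0.13. None of the 3 passed, and under median centring 2 were separated, beside 5.36% of all genes. Medians were 0.06 for 5 amacrine, -0.01 for 5 of 6 Müller glia and -0.01 for 5 of 7 pigment epithelium markers, of which Rpe65 and Tyr fell below the filter on dim signal.

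**Figure D3:**
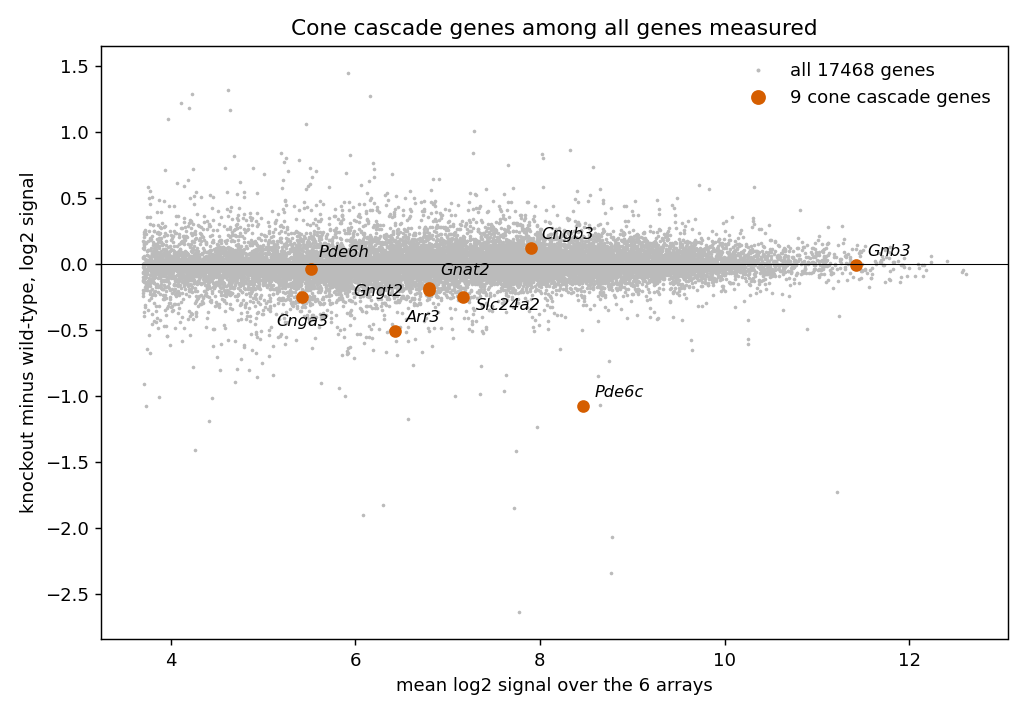
Mean log2 signal over the 6 arrays (horizontal axis) against the difference between knockout and wild-type (vertical axis, log2) for all 17468 genes (grey) and the 9 cone cascade genes (orange). Pde6c at -1.08 and Arr3 at -0.51 lie at the lower edge of the cloud, and Gnb3, Pde6h and Cngb3 lie inside it.

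The arrays contributed unequally to the 9 genes. Relative to the wild-type mean, the median of the 9 was -0.11, -0.22 and -0.26 in knockout 1 to 3, against 0.08, 0.04 and -0.12 in wild-type 1 to 3, so wild-type 3 lay just below knockout 1. Knockout 3 was the lowest array for 7 of the 9, and for 20.8% of all genes. Wild-type 1 was the highest array for 5 of the 9, and for 9.42% of all genes. Without knockout 1, or without wild-type 3, 7 of the 9 genes had groups that did not overlap, beside 32.9% and 17.9% of all genes in those settings, where only 2 arrays stand in one group. For the values as deposited the count was 4, beside 3.75% of genes, and under median centring it was 3, beside 5.36%. Pde6c, Arr3 and Cnga3 had separated groups under both of these scalings.

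With an array left out, Pde6c lay between -1.18 and -0.99, Arr3 between -0.59 and -0.41 and Cnga3 between -0.29 and -0.23. Slc24a2 lay between -0.35 and -0.18, Gngt2 between -0.25 and -0.13 and Gnat2 between -0.25 and -0.12. Gnb3 and Cngb3 changed sign. In a fit with 1 row per gene, which leaves out the unnamed and more variable clusters, 4 members were lower at an unadjusted p under 0.05 (Pde6c, Arr3, Cnga3 and Gngt2), beside 3.4% of genes, and none passed after adjustment (limma adjusted p = 0.233 for Pde6c and 0.685 for Arr3). With array weights 5 members were lower at an unadjusted p under 0.05, beside 1.82% of genes, and under median centring 2 were, beside 0.796%.

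**Figure D4:**
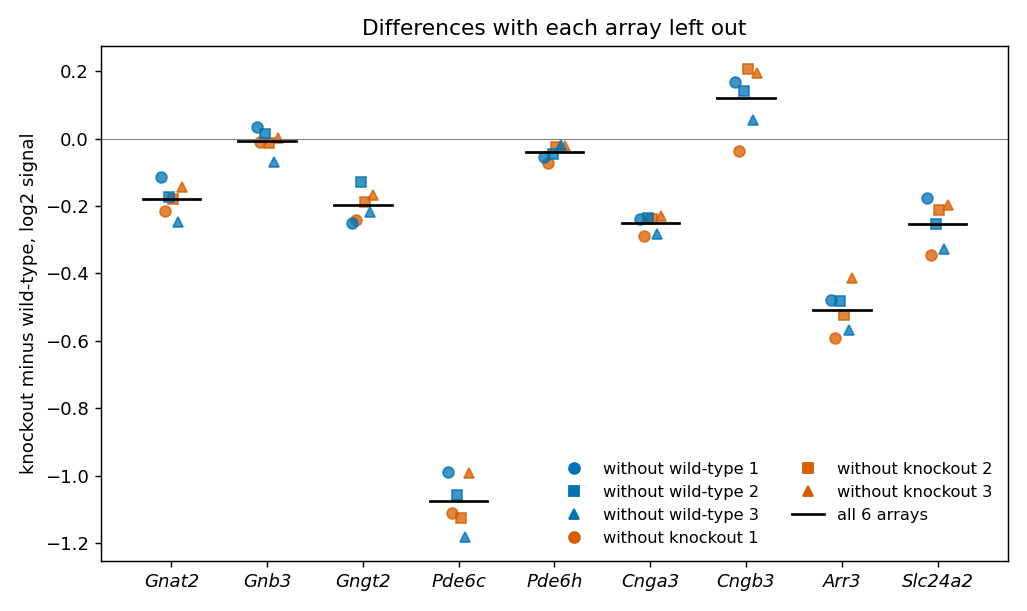
Difference between knockout and wild-type log2 signal (vertical axis) of the 9 genes with all 6 arrays (lines) and with each array left out (symbols, coloured by the genotype of the array left out). Pde6c stays between -1.18 and -0.99, and Cngb3 moves from 0.12 to -0.04 without knockout 1.

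Among all genes, the profiles over the 6 arrays closest to that of Pde6c, by root mean square distance of values centred on each gene's mean, were those of Pcsk6, Vmn1r198, Tnr, Ccl3 and 1700128E19Rik, at 0.154 to 0.202 log2 units, where the SD of Pde6c over the arrays was 0.556. The nearest member of the cascade was Arr3, at rank 19 of 17467 genes. The profiles closest to Arr3 were those of Tmeff2, Nefm, Disp3, Ephx1 and Hrh3, at 0.0642 to 0.0832, with Slc24a2 as the nearest member at rank 55 and Cnga3 at rank 65. All of these genes were lower in knockout and none passed in limma. The points of each profile share their 6 arrays, and the distance follows the size of the difference between the genotypes.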

How the data were processed

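RNA from 6 explant samples, 3 knockout and 3 wild-type, was measured on Affymetrix mouse exon arrays. The authors deposited a table of 100843 transcript clusters with a single value for each array. The deposited values were taken to be log2 signals from their range of 1.48 to 13.86; no source used here states the scale. Per the submitters' processing notes, the tools were Affymetrix Expression Console and PLIER and the build was mm8; the normalization, the background correction and any added constant were not stated. The number of arrays limits the precision.

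Values were quantile normalized between arrays, since the array medians ran from 4.97 to 5.07, and clusters with a mean at or above the 25th percentile (3.70) were kept, 75632 in all. Names came from the platform annotation, where 22608 clusters had 1 symbol and 1462 several; 22101 symbols were updated through gene identifiers to RefSeq (GRCm38.p6) and 507 kept. The brightest kept cluster stood for a gene, which gave 17468 genes.

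Genotypes were compared with limma 3.58.1 in R 4.3.3 (lmFit, then eBayes; two-sided). Benjamini-Hochberg adjustment ran over every kept cluster, with calls at 0.05; differences are knockout minus wild-type. Changes of gene pairs within arrays were compared by exact permutation over the samples. The comparison was tested on simulated data. The members, lists (rod counterparts, pigments, recovery, assembly and markers of 10 cell classes) and the rule for naming genes (all members, pair partners and pigments, up to 3 smallest p of the pathway lists, 5 nearest profiles of Pde6c and of Arr3) were chosen with earlier results of these data known; comparisons within a complex, and the genes named from marker lists, were chosen after their values were seen. Alternatives were other scalings, filters, variance models, array weights, 1 row per gene, cluster means, a replicate block, a looser threshold of 0.1 and each array left out. Same-numbered samples of the 2 genotypes did not deviate together (correlations of 0.125, -0.148 and 0.212), so numbers were not taken to pair samples. Figures used matplotlib 3.10.9.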

Additional observations from a re-analysis of the deposited data

How the results depend on the processing

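In limma no cluster passed in either direction in any of the 20 settings (smallest adjusted p = 0.0820, without wild-type 3). Median differences of the 9 cone genes lay between -0.25 and -0.17 over all settings. The number of cone genes lower in knockout, 8 with all arrays, was 7 to 9. The number with separated groups, 4 with all arrays (beside 11.2% of all genes), was 4 to 7 with an array left out. In those settings 13% to 32.9% of all genes had separated groups with knockout lower. Under other scalings the number was 4 as deposited (3.75%) and 3 under median centring (5.36%). The replicate block counts numbered pairs, not separated groups, and is given below. Results that turned were small ones. Gnb3, at -0.01, stood at 0.02 (0.017 as deposited and 0.018 under median centring, with all clusters and with 1 row per gene), and between -0.069 and 0.035 with an array left out, positive without knockout 3 (0.0024), wild-type 1 or wild-type 2 (0.015). Cngb3 stood at -0.0096 with array weights and -0.037 without knockout 1, the lowest of a range that reached 0.21 with another array left out. With an array left out, the change against the rod counterpart lay between -0.0058 and 0.074 for Gnb3, between -0.27 and 0.0046 for Pde6h, and between -0.031 and 0.29 for Cngb3. The cause was not tested. At an unadjusted p under 0.05 the cone genes lower in knockout, 3 with all arrays, were 2 with the replicate block (beside 0.807% of all genes) and with an intensity trend (1.29%), and 2 to 4 with an array left out (0.732% to 1.5%). With the sample number as a replicate block, 6 of the 9 genes were lower in every numbered pair, beside 17.9% of all genes, and Pde6c stayed at -1.08; the block changed no call. The 1-row-per-gene fits with an intensity trend or another scaling, and the pathway and marker lists under other scalings or with an array left out, were chosen after seeing the data. Dim members such as Cnga3 and Pde6h have no detection value, which limits what their differences show.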
